A study of Mus musculus with 12 samples.

Results

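The 9 genes described here, Odam, Amtn, Lama3, Lamb3, Itga6, Itgb4, Itgb6, Dst and Plec, were chosen by name from the 21965 genes of the count table because they mark the junctional epithelium or build the hemidesmosome. They were measured by RNA-seq in gingival tissue of mice under 12 weeks of age, in 12 libraries that form 4 groups of 3. WT naive mice were wild-type C57BL/6 mice with no ligature, and WT ligated mice were wild-type C57BL/6 mice with a silk thread tied around a maxillary molar for 8 days. CybbKO naive and CybbKO ligated mice carried the genotype Cybb-/- and were handled the same way. Cybb encodes the catalytic subunit of the Nox2 NADPH oxidase, and this knockout is present in every cell of the animal rather than in a single lineage. The study asked how the loss of Nox2 alters oral inflammation, and for these genes that question becomes whether the epithelial attachment to the tooth carried less or more of their mRNA in ligated gingiva, and whether that differed with genotype.

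The junctional epithelium is the collar of epithelium that seals the gingiva to the tooth surface. It holds on to the tooth through hemidesmosomes and an internal basal lamina of unusual composition, which contains secreted proteins related to enamel matrix proteins. In a hemidesmosome an integrin pair in the basal membrane of the keratinocyte grips laminin on the outside, and plakin proteins tie the integrin to keratin filaments on the inside. The same attachment plaque holds the basal layer of the oral epithelium to connective tissue, so that the hemidesmosome genes are not particular to the junctional epithelium.

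Total counts per library lay between 27958819 and 42613423. All 9 genes passed the filter on low counts, as did 15046 genes in all, and levels are given as CPM, the counts of a gene scaled to a common library total after TMM scaling. Cybb was higher in the libraries labelled CybbKO, at 41.6 to 63.7 CPM, than in the WT libraries, at 4.19 to 15.2 CPM. The counts cover the whole gene and do not show which part of the transcript was present, so Cybb did not check the genotype labels, and the genotype is given below as labelled. The summed level of 10 basal keratinocyte markers was 15864 to 26464 CPM and overlapped between all groups, so the tissue held oral epithelium throughout. Of 5 ameloblast markers, 1 was at 0 in every library and the 2 that passed the filter summed to 0.721 to 1.35 CPM. Marker sums were higher in all ligated than in all naive libraries for fibroblasts (4459 to 12032 against 1640 to 3349 CPM), neutrophils (1341 to 11643 against 371 to 924 CPM), monocytes and macrophages (67.2 to 153 against 39.9 to 51.8 CPM) and endothelium (226 to 356 against 124 to 161 CPM). In such bulk tissue fewer cells of a type and less RNA per cell cannot be told apart.

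The promoter windows of the secreted junctional epithelium genes are shown first, because Odam and its nearest neighbour in pattern, Gm17660, belong to the same gene family. Each line gives the 250 bases before the RefSeq start on GRCm38.p6, read 5′ to 3′ along the gene. Odam is on the plus strand at chr5:87884760-87885009, Amtn on the plus strand at chr5:88375858-88376107 and Gm17660 on the minus strand at chr5:104077609-104077858. Capitals mark matches, on either strand, to the TATA box letters TATAAA, the AP-1 letters TGANTCA, the RUNX core letters TGTGGT or the GC box letters GGGCGG. The AP-1 letters read the same on both strands.
Odam: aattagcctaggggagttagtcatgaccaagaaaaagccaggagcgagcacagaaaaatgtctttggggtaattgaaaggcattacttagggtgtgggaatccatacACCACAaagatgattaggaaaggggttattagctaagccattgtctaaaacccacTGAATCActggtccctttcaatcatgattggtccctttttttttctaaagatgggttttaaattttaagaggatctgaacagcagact
Amtn: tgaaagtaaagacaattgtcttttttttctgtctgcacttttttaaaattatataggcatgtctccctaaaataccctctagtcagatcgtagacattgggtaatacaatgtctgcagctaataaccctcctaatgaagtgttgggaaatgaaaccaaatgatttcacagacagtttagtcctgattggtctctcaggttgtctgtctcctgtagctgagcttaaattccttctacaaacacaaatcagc
Gm17660: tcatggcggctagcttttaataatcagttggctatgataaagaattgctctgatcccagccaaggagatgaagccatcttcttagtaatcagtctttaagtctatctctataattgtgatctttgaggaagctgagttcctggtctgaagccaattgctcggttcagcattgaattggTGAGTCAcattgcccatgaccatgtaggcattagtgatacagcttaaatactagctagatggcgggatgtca
The Odam window held the reverse complement of the RUNX core beginning 143 bases before the start and an AP-1 match beginning 88 bases before it. The Gm17660 window held an AP-1 match beginning 72 bases before the start, and the Amtn window held none of the motifs. Over 32851 promoter windows of the same length, 6.75% held an AP-1 match and 14.05% a RUNX core. A match of letters is a description of the window, not a binding site. The windows of Odam, Amtn and Gm17660 were 40.0%, 37.2% and 42.0% G and C, against a median of 52.4% over all windows.

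Per kilobase of exon, Odam was the most abundant of the 9 transcripts and Amtn the least. The mean level over the 12 libraries was 391 CPM per kb for Odam, 52.8 for Itga6, 28.7 for Itgb4, 21.6 for Lama3, 18.98 for Lamb3, 14.6 for Dst, 13.1 for Plec, 6.04 for Itgb6 and 0.231 for Amtn. Odam thus stood far above the structural genes, whereas Lama3, Lamb3, Dst and Plec lay close together and their order should not be read. The value for Dst depends on its exon length, since its exons add up to 41155 bases over 20 annotated transcripts with 17 different starts, and a library that uses the short epithelial form fills only a part of them. The counts do not separate these forms.

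**Figure D1:**
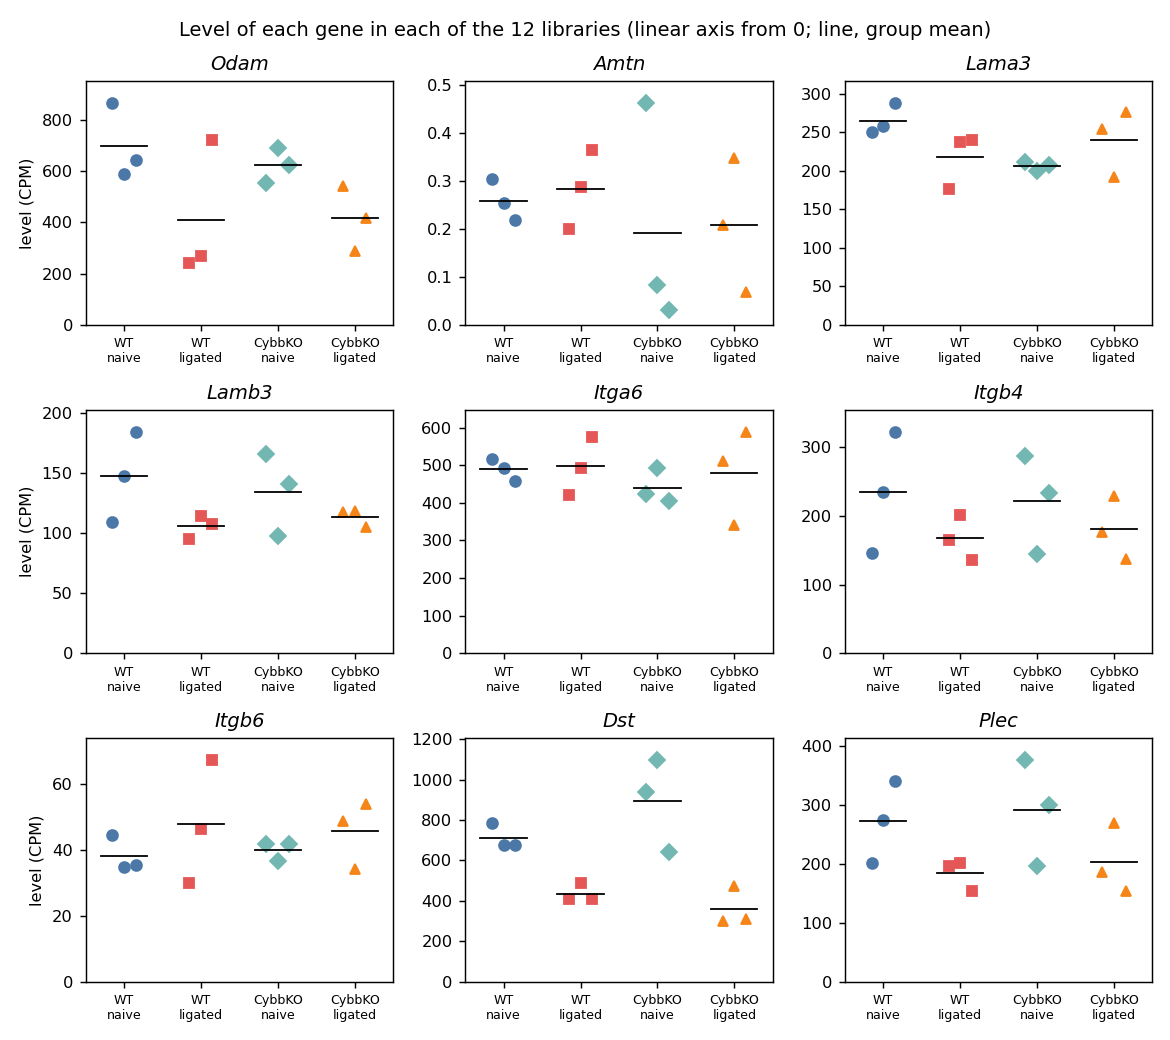
Level of each of the 9 genes (vertical axis, CPM, linear from 0) in WT naive, WT ligated, CybbKO naive and CybbKO ligated gingiva; each point is 1 library and each line the mean of 3. Dst lies lower in all 3 ligated than in all 3 naive libraries of both genotypes, and 1 WT ligated library holds Odam at 721 CPM, within the naive range.

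Of the 9 genes, the plakin gene Dst fell with ligature by edgeR's quasi-likelihood test in CybbKO, and none of the other 8 was called in either genotype by that test with all 12 libraries and no correction. Counted together, 0 of the 9 genes were called with ligature in WT, where 3.2% of all tested genes were (481 genes), and 1 of 9, Dst, in CybbKO, where 13.0% were (3.04% in the lower direction). At an unadjusted p under 0.05, 2 of 9 passed in WT, where 19.9% of all genes did, and 1 of 9 in CybbKO, where 27.7% did. DESeq2 called 1 of 9, Dst, in each genotype, where it called 8.97% of all genes in WT and 17.9% in CybbKO. The count of 481 in WT was 1374 with DESeq2 and 27 without WT naive replicate 2. A count of 1 in 9 is near the share of all genes called in either direction. The median difference of the 9 was -0.48 in WT and -0.24 in CybbKO, against -0.03 for all tested genes in each. These medians are of uncorrected differences. The GC correction described below brought Lamb3, Itgb4 and Plec nearer to 0 in both genotypes, and Odam further from it. The groups did not overlap for Lama3 and Dst in WT, where 11.6% of all genes lay lower without overlap, and for Odam and Dst in CybbKO, where 12.8% did. Taking both genotypes as 1 contrast, 24.4% of all genes were called, and of the 9 Dst alone. In that contrast DESeq2 called 3 of the 9, Odam, Dst and Plec, where it called 28.2% of all genes.

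Odam encodes odontogenic ameloblast-associated protein, which the junctional epithelium secretes into the internal basal lamina. The gene lies on chromosome 5 at 87885029 to 87894174 (GRCm38, plus strand). In WT naive replicates 1, 2 and 3 its level was 866, 589 and 644 CPM, and in WT ligated replicates 243, 270 and 721 CPM. The libraries of WT ligated replicates 1 and 2 lay below every naive library, while WT ligated replicate 3 lay inside the naive range, so the groups overlapped. In CybbKO naive replicates Odam was at 553, 692 and 623 CPM and in CybbKO ligated replicates at 541, 290 and 419 CPM. These groups did not overlap, although CybbKO ligated replicate 1 and CybbKO naive replicate 1 differed by little. The log2 fold change with ligature was -0.77 (SE 0.37) in WT and -0.58 (SE 0.37) in CybbKO, with 95% intervals of -1.58 to 0.04 and -1.39 to 0.23. Neither passed edgeR's quasi-likelihood test after adjustment over all genes (adjusted p = 0.272 and 0.339). Without WT ligated replicate 3 the WT difference was -1.45 and passed (adjusted p = 0.0381 by the same test), so that this library decided the call. Without WT ligated replicate 1 it was -0.46 and without WT ligated replicate 2 it was -0.54, and the CybbKO difference was -0.38 without CybbKO ligated replicate 2, none of them called. As a mean over both genotypes, a contrast added after the data were seen, Odam differed by -0.67 (SE 0.26, 95% interval -1.24 to -0.10, adjusted p = 0.0812).

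Of all other tested genes, the one whose pattern over the 12 libraries was most like that of Odam was Gm17660. RefSeq gives its synonym as Scpppq1, a secreted calcium-binding phosphoprotein that is, like Odam, a component of the internal basal lamina of the junctional epithelium. Likeness was measured as the root mean square difference of log2(CPM + 0.5) after centring each gene on its own mean, and was 0.178 for Gm17660, 0.221 for Dynap and 0.232 for Cdo1, where Odam itself varied by 0.578 around its mean. Gm17660 had 72 to 270 counts per library. Its level was 8.22, 4.49 and 6.93 CPM in WT naive, 1.82, 1.88 and 4.90 CPM in WT ligated, 5.14, 5.35 and 6.56 CPM in CybbKO naive and 3.94, 2.14 and 3.45 CPM in CybbKO ligated replicates 1, 2 and 3. The lowest levels of both genes were in WT ligated replicates 1 and 2, and the highest in WT naive replicate 1. WT ligated replicate 3, in which Odam lay inside the naive range, also held Gm17660 inside it. Since Gm17660 was picked for its likeness to Odam over these libraries, this agreement and a ligature difference in the same direction follow from the choice and are given as a description. The ligature difference in Gm17660 was -1.19 (SE 0.39, adjusted p = 0.119) in WT and -0.84 (SE 0.39, adjusted p = 0.188) in CybbKO by edgeR's quasi-likelihood test, and as a mean over both genotypes, where 24.4% of all genes were called, it was -1.01 (SE 0.28, adjusted p = 0.0207). Gm17660 lies on the same chromosome as Odam, but the genes are far apart.

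**Figure D2:**
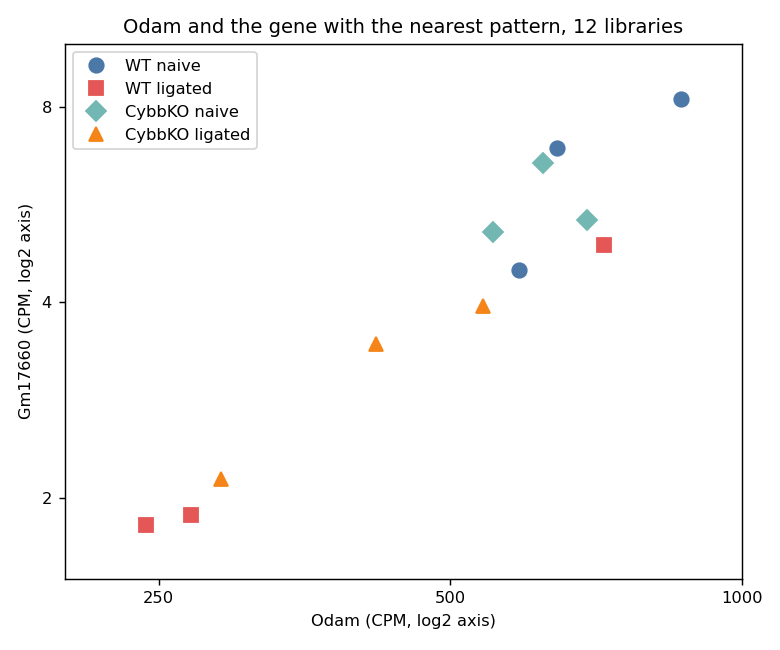
Odam (horizontal axis) against Gm17660 (vertical axis), both in CPM on log2 axes, with 1 point per library and the 4 groups by colour and shape. WT ligated replicates 1 and 2 sit at the lower left with 243 and 270 CPM of Odam and 1.82 and 1.88 CPM of Gm17660, and WT naive replicate 1 sits at the upper right with 866 and 8.22 CPM.

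Amtn encodes amelotin, another enamel-related protein of the internal basal lamina, and lies near Odam on chromosome 5 at 88376108 to 88385916. It was close to undetected, with 1 to 16 counts per library and 0.0305 to 0.462 CPM. Its groups overlapped in every comparison. The ligature difference was 0.12 in WT and 0.09 in CybbKO, with 95% intervals of -1.48 to 1.72 and -1.60 to 1.78. Changes within these wide intervals remain compatible with the few counts. Its nearest genes in pattern, Tubg2, Spry1 and the carboxypeptidase gene Cpm, differed from it by 0.146 to 0.163, against 0.250 for its own variation, which is a weak likeness of a gene with few counts.

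Lama3 and Lamb3 encode the alpha and beta chains of the laminin that hemidesmosomes bind. Lama3 lies on chromosome 18 at 12333819 to 12583013 and Lamb3 on chromosome 1 at 193207699 to 193343878, where the table also lists Hsd11b1 and G0s2 on the opposite strand. Lama3 was at 250, 258 and 288 CPM in WT naive and 176, 237 and 241 CPM in WT ligated replicates. The WT groups did not overlap, ligated below naive. In CybbKO naive replicates Lama3 was at 211, 199 and 208 CPM and in CybbKO ligated replicates at 254, 192 and 276 CPM, and here the groups overlapped and the mean was higher with ligature. The ligature difference was -0.28 (SE 0.15) in WT and 0.22 (SE 0.15) in CybbKO, on the log2 scale, and neither was called by edgeR's quasi-likelihood test (adjusted p = 0.333 and 0.387). The WT difference was -0.12 without WT ligated replicate 1, and the CybbKO difference 0.11 without CybbKO ligated replicate 3. Every CybbKO naive library held less Lama3 than every WT naive library. That difference was -0.36 (SE 0.15, 95% interval -0.70 to -0.03), with an unadjusted p of 0.0374 and an adjusted p of 1.00 in edgeR's quasi-likelihood test over all genes. The interaction of genotype and ligature for Lama3 was 0.51 (SE 0.22, 95% interval 0.03 to 0.98), with an unadjusted p of 0.0398 and an adjusted p of 1.00 in the same test, so that the opposite directions in the genotypes were not called as different.

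Lamb3 was at 110, 148 and 185 CPM in WT naive, 95.7, 114 and 108 CPM in WT ligated, 166, 97.4 and 141 CPM in CybbKO naive and 118, 119 and 105 CPM in CybbKO ligated replicates. WT ligated replicates 1 and 3 lay below every WT naive library and replicate 2 within their range, and the CybbKO ligated libraries lay within the CybbKO naive range, so the groups overlapped in both genotypes. The ligature difference was -0.48 (SE 0.21, 95% interval -0.93 to -0.03) in WT and -0.24 (SE 0.21, 95% interval -0.69 to 0.20) in CybbKO, with adjusted p = 0.224 and 0.479 in edgeR's quasi-likelihood test. With 1 library left out the Lamb3 difference ran from -0.65 (without WT naive replicate 1) to -0.28 (without WT naive replicate 3) in WT and from -0.43 (without CybbKO naive replicate 2) to -0.066 (without CybbKO naive replicate 1) in CybbKO. The log2 ratio of Lama3 to Lamb3 CPM ranged from 0.35 to 1.39 over the libraries.

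Itga6 and Itgb4 encode the chains of the hemidesmosomal integrin. Itga6, on chromosome 2 at 71745616 to 71858416, was at 517, 492 and 458 CPM in WT naive, 421, 493 and 575 CPM in WT ligated, 425, 493 and 404 CPM in CybbKO naive and 512, 340 and 589 CPM in CybbKO ligated replicates, and all groups overlapped. Its ligature difference was 0.02 in WT (95% interval -0.39 to 0.44) and 0.13 in CybbKO (95% interval -0.29 to 0.54). Itgb4, on chromosome 11 at 115974709 to 116008412, was at 146, 235 and 323 CPM in WT naive, 165, 201 and 136 CPM in WT ligated, 287, 144 and 233 CPM in CybbKO naive and 177, 229 and 137 CPM in CybbKO ligated replicates. The naive libraries spanned 144 to 323 CPM, and the ligated libraries lay within or just below that span. Its ligature difference was -0.49 in WT (95% interval -1.16 to 0.19) and -0.29 in CybbKO (95% interval -0.97 to 0.38). With 1 library left out the difference ran from -0.74 (without WT naive replicate 1) to -0.19 (without WT naive replicate 3) in WT, and from -0.52 (without CybbKO naive replicate 2) to -0.061 (without CybbKO naive replicate 1) in CybbKO. The products pair one to one, but the log2 ratio of Itga6 to Itgb4 CPM was not constant and ran from 0.51 in WT naive replicate 3 to 2.10 in CybbKO ligated replicate 3.

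Itgb6 encodes the beta chain that pairs with the alpha-v integrin chain and activates TGF-beta, and in gingiva it is known as a gene of the junctional epithelium. It lies on chromosome 2 at 60598292 to 60722643 on the minus strand. Its level was 44.4, 34.9 and 35.3 CPM in WT naive, 29.99, 46.4 and 67.2 CPM in WT ligated, 41.8, 36.7 and 41.7 CPM in CybbKO naive and 48.8, 34.3 and 53.9 CPM in CybbKO ligated replicates. The ligated libraries spread on both sides of the naive ones. The ligature difference was 0.32 (95% interval -0.23 to 0.88) in WT and 0.19 (95% interval -0.36 to 0.74) in CybbKO, and neither was called by edgeR's quasi-likelihood test (adjusted p = 0.515 and 0.67). With 1 library left out the Itgb6 difference in WT was lowest, at -0.0013, without WT ligated replicate 3 and highest, at 0.61, without WT ligated replicate 1, and it ran from 0.052 (without CybbKO ligated replicate 3) to 0.36 (without CybbKO ligated replicate 2) in CybbKO.

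Dst, the plakin gene whose epithelial product links hemidesmosomes to keratin, was called by edgeR's quasi-likelihood test in CybbKO, the only one of the 9 genes called within a genotype when all 12 libraries were fitted without correction. It lies on chromosome 1 at 33908225 to 34308661. Dst was at 939, 1096 and 643 CPM in CybbKO naive replicates and at 302, 474 and 309 CPM in CybbKO ligated replicates. In WT it was at 784, 677 and 676 CPM in naive and at 407, 487 and 408 CPM in ligated replicates. In both genotypes every ligated library lay below every naive library. In CybbKO it fell by 1.30 on the log2 scale (SE 0.22, 95% interval -1.78 to -0.83), to 0.405 times the naive level, with an adjusted p of 0.00393 in edgeR's quasi-likelihood test. In WT the difference was -0.72 (SE 0.22, 95% interval -1.19 to -0.24), or 0.609 times the naive level, with an adjusted p of 0.0912, and it was called there by DESeq2 and in a fit of the WT libraries alone. The difference between the genotypes in this change was -0.59 (SE 0.30, 95% interval -1.25 to 0.08, adjusted p = 1.00 by edgeR's quasi-likelihood test), so a larger fall in CybbKO was not shown. With 1 library left out, this genotype difference in the change ran from -0.83 (without CybbKO ligated replicate 2) to -0.41 (without CybbKO naive replicate 2). It was -1.09 without the 4 libraries with a high GC trend, described below, where 1 CybbKO naive library is left. As a mean over both genotypes Dst fell by 1.01 on the log2 scale (adjusted p = 0.00108 by edgeR's quasi-likelihood test).

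RefSeq gave promoter windows for a pair of Dst starts, which are shown because the gene has many starts and these windows differ in composition. They lie on the plus strand of GRCm38.p6 at chr1:34011345-34011594 and chr1:34160010-34160259, and capitals mark the same motifs as above.
Dst start 1: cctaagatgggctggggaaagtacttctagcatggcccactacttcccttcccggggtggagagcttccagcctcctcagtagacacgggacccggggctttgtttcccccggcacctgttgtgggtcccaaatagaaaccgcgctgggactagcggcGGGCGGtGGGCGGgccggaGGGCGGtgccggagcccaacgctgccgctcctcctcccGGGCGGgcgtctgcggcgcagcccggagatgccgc
Dst start 2: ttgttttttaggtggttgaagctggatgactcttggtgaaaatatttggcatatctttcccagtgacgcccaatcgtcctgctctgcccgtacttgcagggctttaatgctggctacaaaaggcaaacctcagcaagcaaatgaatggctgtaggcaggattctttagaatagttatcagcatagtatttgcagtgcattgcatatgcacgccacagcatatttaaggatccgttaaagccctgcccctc
The first window was 68.8% G and C and held 4 GC boxes, which 32.7% of all windows held at least once. The second was 45.2% G and C and held none of the motifs. The gene-level counts do not show from which start the transcripts came, and therefore not which form was lower with ligature.

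Dst is also transcribed in nerve and muscle, so markers of those cells are given beside it. The summed level of 8 Schwann cell markers was 148 to 242 CPM in naive and 138 to 201 CPM in ligated libraries, and that of 10 skeletal muscle markers was 855 to 3540 CPM in naive and 715 to 3321 CPM in ligated libraries. Both ranges overlapped between ligated and naive groups. Relative to the mean of the 10 basal keratinocyte markers, on the log2 scale, Dst was at 0.45, -0.17 and -0.14 in WT naive and -0.60, -0.47 and -0.53 in WT ligated replicates, and at 0.38, 0.95 and -0.03 in CybbKO naive and -0.92, -0.48 and -0.93 in CybbKO ligated replicates. The difference on this scale was -0.58 in WT and -1.21 in CybbKO, with no overlap in either genotype, where 4.13% of all genes in WT and 8.07% in CybbKO lay lower without overlap. Lamb3 and Plec also lay lower without overlap in WT on this scale. Against 12 suprabasal markers instead, 0 of the 9 genes were free of overlap in WT, Dst included (difference -0.35), where 32.8% of all genes were. In CybbKO 2 were, where 35.5% of all genes were. These were Dst, with a difference of -0.83, and Amtn, with a difference of 0.53 at levels below the 0.5 CPM added before logs. The absence of overlap for Dst in WT thus depended on which epithelial markers were the reference. Both epithelial marker lists moved in part with ligature. Of the suprabasal markers, Krt10 was called lower in WT, and Krt10 and Krt1 in CybbKO. Over both genotypes these and Krt76 were called lower and Krt6b higher. The median difference of the 12 was -0.22 in WT and -0.31 in CybbKO. Their summed level was 106751 to 151815 CPM in naive and 83186 to 134938 CPM in ligated libraries. No basal marker was called in WT, while in CybbKO Krt15 was called lower and Cdh3 higher. Over both genotypes Krt15 was called lower and Cdh3 and Dsg3 higher. The median difference of the 10 basal markers was -0.13 in WT and -0.16 in CybbKO. The part of either list in the fall of Dst was not tested.

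Plec encodes plectin, the plakin that binds the hemidesmosomal integrin and anchors keratin to it. It lies on chromosome 15 at 76170974 to 76232574 on the minus strand and shares that strand with Parp10, which the table lists separately. Plec was at 201, 274 and 341 CPM in WT naive, 197, 201 and 153 CPM in WT ligated, 375, 196 and 300 CPM in CybbKO naive and 185, 268 and 154 CPM in CybbKO ligated replicates. The lowest naive library of each genotype reached down into its ligated group. The ligature difference was -0.57 (SE 0.27, 95% interval -1.16 to 0.02) in WT and -0.52 (SE 0.27, 95% interval -1.11 to 0.07) in CybbKO, with adjusted p = 0.268 and 0.235 in edgeR's quasi-likelihood test. With 1 library left out the Plec difference ran from -0.74 (without WT naive replicate 1) to -0.37 (without WT naive replicate 3) in WT and from -0.78 (without CybbKO ligated replicate 2) to -0.30 (without CybbKO naive replicate 1) in CybbKO. As a mean over both genotypes it was -0.54 (SE 0.19, adjusted p = 0.0576 by the same test).

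**Figure D3:**
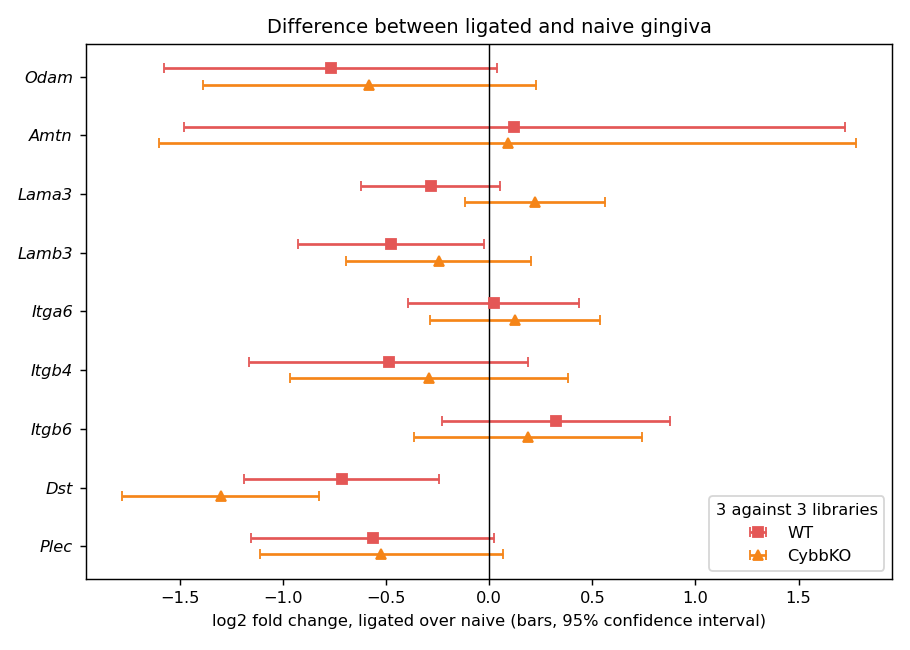
Log2 fold change of ligated over naive gingiva (horizontal axis) for the 9 genes, in WT (squares) and CybbKO (triangles); bars are 95% confidence intervals from 3 against 3 libraries. The intervals of Dst exclude 0 in both genotypes, Lamb3 excludes it in WT, and the intervals of Amtn reach from -1.60 to 1.78.

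Between genotypes, 0 of the 9 genes were called in ligated gingiva and 0 of 9 in naive gingiva, by edgeR's quasi-likelihood test and by DESeq2. Over all genes edgeR's test called 0.00665% in each of these comparisons, which is 1 gene, Cybb, and DESeq2 called 0.112% in ligated and 0.011% in naive gingiva. At an unadjusted p under 0.05 in edgeR's test, 0 of 9 passed in ligated gingiva, where 3.34% of all genes did, and 1 of 9, Lama3, in naive gingiva, where 2.03% did. The first count depended on single libraries. Without CybbKO ligated replicate 2 the Dst difference in ligated gingiva went from -0.26 to -0.51 (unadjusted p = 0.0282, adjusted p = 0.653), and without WT ligated replicate 3 the Odam difference went from 0.019 to 0.70 (unadjusted p = 0.0183, adjusted p = 0.77). Without the 4 libraries with a high GC trend, described below, Dst was at -0.50 (unadjusted p = 0.00467, adjusted p = 0.321). In ligated gingiva all 9 genes overlapped between genotypes, where 7.84% of all genes did not. In naive gingiva Lama3 was the only one of the 9 without overlap, where 3.03% of all genes lay lower in CybbKO without overlap. After the GC correction described below, Itga6 lay lower without overlap as well, which makes 2 of 9 where 4.52% of all genes did. The 95% intervals give the differences that remain compatible with these libraries. In ligated gingiva they ran from -0.20 to 0.48 for Lama3, -0.34 to 0.55 for Lamb3, -0.46 to 0.37 for Itga6, -0.56 to 0.79 for Itgb4, -0.62 to 0.48 for Itgb6, -0.73 to 0.21 for Dst, -0.45 to 0.73 for Plec, -0.78 to 0.82 for Odam and -2.06 to 1.14 for Amtn. The interaction of genotype and ligature was called for 0 of the 9 genes and for 0.0% of all genes, by edgeR's test and by DESeq2. At an unadjusted p under 0.05 in edgeR's test, 1 of 9, Lama3, passed, where 2.27% of all genes did. This count also moved with the setting. It was 0 with library size only and without WT ligated replicate 1. With a block for the replicate number it was 2, where Dst passed as well (unadjusted p = 0.0497 in edgeR's test).

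A property of the libraries moved with the levels of Itgb4 and Plec. The GC trend of a library is given here as the median log2 deviation of the 1503 tested genes with the highest exonic GC content minus that of the 1503 with the lowest. It was above 0.3 in 4 libraries, at 0.58 in CybbKO ligated replicate 2, 0.75 in WT naive replicate 3, and 0.54 and 0.38 in CybbKO naive replicates 1 and 3. In the other 8 libraries it lay between -0.49 and -0.06, so 3 of the 4 high libraries were naive. These 4 also had the lowest values of a length trend, the median log2 deviation of the longest 10% of tested genes by exon length minus that of the shortest 10%, at -0.34 to -0.18 against -0.042 to 0.27 in the other 8. The longest of the 9 genes are Dst, Plec and Lama3, with exons of 41155, 18113 and 10745 bases. No fit corrected for length. Without these 4 libraries the Dst difference with ligature was -0.73 in WT and -1.82 in CybbKO. The CybbKO value rests on 1 naive library, replicate 2, which held the highest Dst of the 12 libraries (1096 CPM). The part of the length trend in these and the other differences was not tested. The exons of Plec were 61.0% G and C, more than 98.0% of tested genes, and those of Itgb4 were 59.1%. In the 4 libraries with a high trend Itgb4 was at 229 to 323 CPM and Plec at 268 to 375 CPM, whereas in the other 8 they were at 136 to 235 and 153 to 274 CPM. Itga6, at 47.2% G and C, went the other way, with 340 to 458 CPM in the 4 libraries and 421 to 589 CPM in the other 8. The 3 genes most like Itgb4 over the 12 libraries were Erf, Wiz and Csnk1g2, none of them a gene of cell adhesion, at root mean square differences of 0.0876 to 0.0928 and with exons of 58.1% to 59.8% G and C. The salivary gland markers stood apart in a further way, with a sum of 29371 CPM in WT naive replicate 3 and 63.7 CPM in WT naive replicate 1. That WT naive replicate 3 also held the highest Itgb4, Lama3 and Lamb3, and the part of the gland content in this was not tested.

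**Figure D4:**
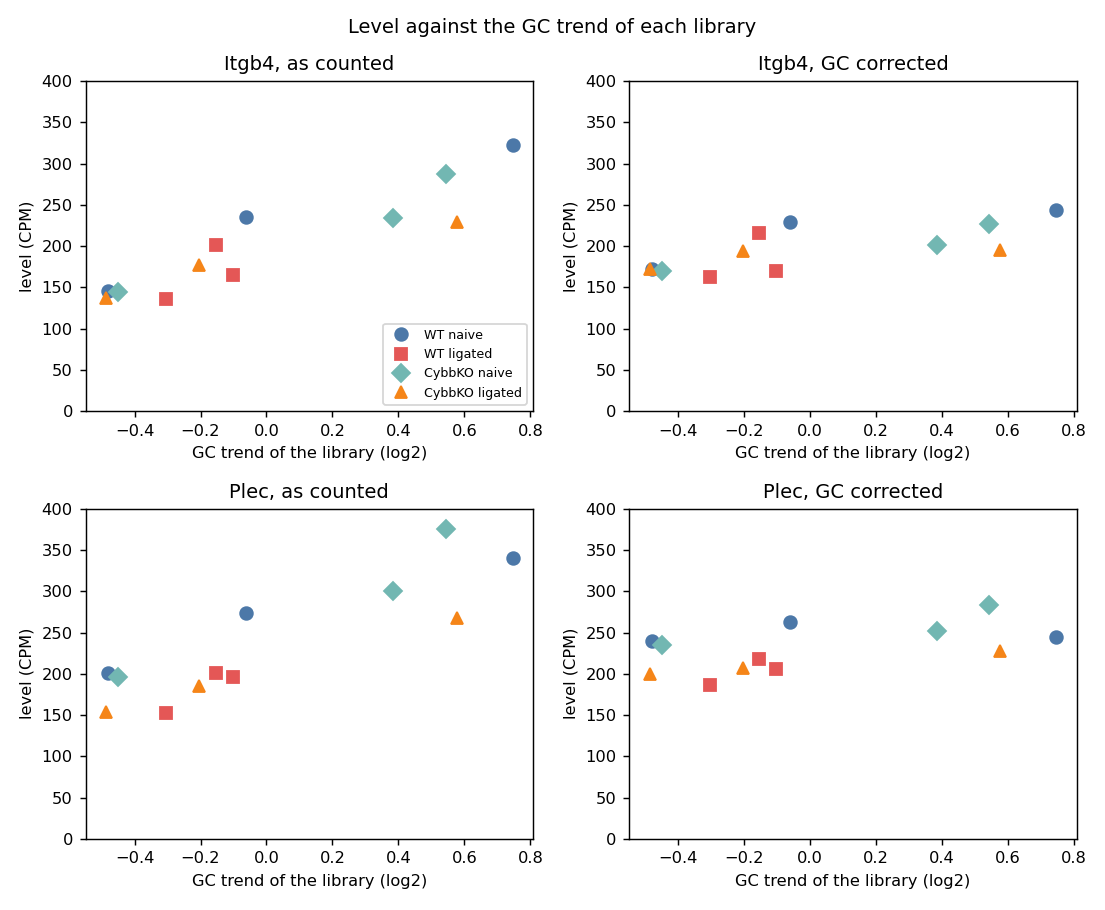
Level of Itgb4 and Plec (vertical axes, CPM, linear from 0) against the GC trend of each library (horizontal axis, log2), as counted on the left and after correction for the trend on the right, with 1 point per library. As counted, Itgb4 runs from 229 to 323 CPM in the 4 libraries with a trend above 0.3 and from 136 to 235 CPM in the other 8, and after correction Plec lies lower in every ligated than in every naive library of the same genotype.

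A correction for this trend, added after the data were seen, narrowed the spread of the GC-rich genes. Corrected Plec was at 240, 262 and 244 CPM in WT naive and 206, 217 and 186 CPM in WT ligated replicates, and at 283, 235 and 251 CPM in CybbKO naive and 207, 228 and 200 CPM in CybbKO ligated replicates. The groups then did not overlap in either genotype. Corrected levels were lower without overlap for 4 of the 9 genes in WT (Lama3, Lamb3, Dst and Plec), where 13.9% of all genes were, and for 3 in CybbKO (Odam, Dst and Plec), where 17.9% were. The corrected difference in Plec was -0.29 (SE 0.09) in WT and -0.28 (SE 0.09) in CybbKO, smaller than uncorrected but with a smaller error, with adjusted p = 0.0783 and 0.0572 in edgeR's quasi-likelihood test. As a mean over both genotypes the corrected contrast called Plec (-0.29, adjusted p = 0.00757), Odam (-0.71, adjusted p = 0.0428) and Dst (-1.01, adjusted p = 0.000679). These 3 of 9 stand beside 32.9% of all genes called in the corrected contrast, a share near that of the 9. Itgb4 after correction was 172 to 244 CPM in WT naive and 162 to 215 CPM in WT ligated replicates, and its difference was -0.24 in WT and -0.09 in CybbKO, neither of them called. The Dst difference in CybbKO was -1.30 with the correction (adjusted p = 0.0026 in edgeR's quasi-likelihood test). The exons of Dst were 49.3% G and C, at percentile 44.8 of the tested genes, so this correction could change it little. The range of the log2 ratio of Itga6 to Itgb4 narrowed from 0.51 to 2.10 to 0.89 to 1.79.

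Beyond the 9 genes, the other parts of the attachment were counted over lists taken from textbook knowledge. The counts stand beside the share of all genes called by edgeR's test, which was 3.2% in WT, 13.0% in CybbKO and 24.4% over both genotypes. Of 11 hemidesmosome and anchoring partners, 0 were called with ligature in WT. In CybbKO 2 rose, Itgb1 (0.80 log2, adjusted p = 0.0306), a beta chain of focal adhesion integrins, and Kank2 (0.66, adjusted p = 0.0471), an adaptor at the rim of adhesions. One hemidesmosome gene on this list, Col17a1, whose product is the transmembrane collagen that binds the Dst protein, fell by 0.62 on the log2 scale in CybbKO (adjusted p = 0.0401), from a mean of 1043 to 677 CPM. In WT its difference was -0.44 (adjusted p = 0.192). The keratins that plakins bind, Krt5 and Krt14, were not called, with differences of -0.35 and -0.24 in WT and -0.41 and -0.34 in CybbKO. Of 5 further plakins 1 fell in both genotypes, Eppk1 (epiplakin, a keratin-bound plakin), by 1.36 in WT (adjusted p = 0.00652) and by 1.42 in CybbKO (adjusted p = 0.00207) on the log2 scale. The desmosomal plakin Dsp, the cornified envelope plakins Ppl and Evpl, and Macf1, a plakin that links actin and microtubules, were not called within a genotype. Over both genotypes Macf1 was called higher and Eppk1 lower.

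Of 15 general basement membrane genes, 7 rose, 0 fell and 8 were not called in WT, and 7 rose, 1, Fras1, fell and 7 were not called in CybbKO, with a median difference of 0.77 and 1.00. Col4a1 and Col4a2, the chains of the common type IV collagen, rose by 1.89 and 1.64 in WT (adjusted p = 0.0274 and 0.0261) and by 2.66 and 2.48 in CybbKO (adjusted p = 0.00254 and 0.00207) in edgeR's quasi-likelihood test. The nidogens Nid1 and Nid2, which join collagen to laminin, rose by 1.66 and 1.53 in WT and by 2.09 and 2.07 in CybbKO. Agrn, the most abundant proteoglycan gene of the list, was not called, at 0.05 in WT and -0.13 in CybbKO. Fibroblast and endothelial marker sums, which cover cells that make these collagens, were higher in the same libraries, and their part in the rise was not tested.

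Of the enamel and SCPP genes related to Odam and Amtn, 8 of 14 passed the filter, and 1 rose in WT and 2 in CybbKO, while 0 fell. Over both genotypes 3 rose and 1, Gm17660, fell. Ibsp, which encodes bone sialoprotein, rose by 2.90 on the log2 scale in CybbKO (adjusted p = 0.0368) and differed by 1.75 in WT (adjusted p = 0.232). Spp1, which encodes osteopontin, rose by 4.33 in WT and 4.82 in CybbKO on the log2 scale (adjusted p = 0.0449 and 0.0125), from group means of 4.53 and 3.00 CPM to 91.8 and 85.0 CPM. Odaph, the gene of odontogenesis associated phosphoprotein and the most abundant of the list, had group means of 134 to 172 CPM and was not called. Of 14 genes of alpha-v integrins and TGF-beta activation, the partners of Itgb6, 2 rose in WT and 6 in CybbKO, and 0 fell. Among them Tgfb3, a TGF-beta ligand, rose by 1.06 and 1.34, whereas Itgav, the chain that pairs with Itgb6, differed by 0.46 in each genotype and was not called. Of 12 junctional epithelium keratins and secreted defence genes 1 rose in WT and 3 in CybbKO. These were S100a8 in both, and S100a9 and the adhesion molecule Icam1 in CybbKO, of which S100a8 and S100a9 also stand among the neutrophil markers, and Krt16 and the protease inhibitor Slpi were not called within a genotype. Over both genotypes 3 of these 12 rose and 2 fell, Slpi and Krt17. In the comparisons between genotypes and in the interaction, 0 genes of these lists were called.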

How the data were processed

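Gingival RNA was measured in 12 stranded poly(A) libraries. The authors deposited raw counts, whole numbers of reads per gene with no normalization. Per the study's methods reads were aligned to GRCm38, and the counting tool is named differently by the methods (featureCounts) and the submitters' processing notes (HTSeq 0.10.0). Total counts ran from 27958819 to 42613423. The spread between libraries (biological coefficient of variation 0.240) limits precision for all members except Amtn, where counts are few.

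Symbols, positions and exon lengths came from GENCODE M21 (GRCm38), with 21939 of 21965 genes matched and 26 not. Promoter windows are from RefSeq (GRCm38.p6), which held 5 of the 9 genes, and 1 list gene was matched by its RefSeq synonym. The counts were fitted in R 4.3.3 with edgeR 4.0.16, by a quasi-likelihood test on the 12 libraries with 1 mean per group, TMM scaling and filterByExpr. P-values were adjusted by Benjamini-Hochberg over the 15046 genes tested, and called means an adjusted p under 0.05. Levels are CPM, and 0.5 CPM was added before logs. DESeq2 1.42.0 was an alternative. The scripts were tested on simulated data. The labels do not say that libraries of a group came from separate animals, so p-values measure the spread between these libraries.

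Named genes are the 9 members, Cybb, the 3 most abundant and up to 4 called genes of each list, and the 3 genes nearest in pattern to Odam, Amtn and Itgb4. Not every named list gene is printed. Cdh3, Dsg3, Fras1, Krt1, Krt10, Krt15, Krt17, Krt6b, Krt76 and Macf1 were named after their values were seen. The members and lists were chosen with earlier results of these data known. The contrast of both genotypes together, the GC correction (a spline with 4 degrees of freedom per library) and the omission of 4 libraries were added after the data were seen.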

Additional observations from a re-analysis of the deposited data

How the results depend on the processing

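Of 344 single-gene differences recomputed under other settings, 323 kept their direction and their side of the threshold, 10 came to be called and 11 changed sign; of 222 with 1 library left out the numbers were 198, 5 and 19. All sign changes were of differences that were not called. Dst was called lower with ligature in CybbKO under every setting run and without any single library. Except for the suprabasal list and the omitted libraries, whose construction is given, the cause of a move was not tested. DESeq2 called 1374 genes with ligature in WT, 1 of them a member (Dst), 18 and 2 genes between genotypes in ligated and naive gingiva, and 3 members (Odam, Dst, Plec) over both genotypes, where it called 28.2% of all genes. With library size only, the genotype difference of Odam in ligated gingiva was -0.019. Of 18 pairs of libraries with the same replicate number, 3 had deviations correlated above 0.1. The deviations were taken within groups of 3 libraries, so they cannot decide whether the numbers pair the libraries. A replicate block called 271 genes with ligature in WT instead of 481 and moved no member across the threshold. The GC correction called 1212 genes in WT and 3038 in CybbKO, and 3 members over both genotypes (Odam, Dst, Plec), where 32.9% of all genes were called, with Itga6 at -0.0044 in WT. With the replicate block as well, it called 912 genes and 1 member (Dst) in WT and 3 members over both genotypes (30.3% of all genes), with Itga6 at -0.0092. Without the 4 libraries with a high GC trend, 1627 genes and 1 member (Dst) were called in WT and 0 genes between genotypes in ligated or naive gingiva. The ligature difference there was -0.0030 for Itga6 in WT, 0.22 for Lamb3 and 0.14 for Itgb4 in CybbKO, and the genotype difference in ligated gingiva 0.16 for Itga6, -0.082 for Itgb4, 0.11 for Itgb6 and -0.11 for Plec. In this setting WT naive kept 2 libraries, CybbKO naive 1 and CybbKO ligated 2, and the lone library is assumed to vary like the others. With only the libraries of the contrast, 1 member (Dst) was called in WT and 0 genes between genotypes in ligated gingiva, where Odam was at -0.0066. Against suprabasal markers 0 members in WT (32.8% of all genes) and 2 in CybbKO (35.5%) did not overlap. With 1 library left out, 27 (without WT naive replicate 2) to 737 (without WT naive replicate 3) genes and 0 to 1 members were called with ligature in WT, the 1 being Odam without WT ligated replicate 3. In CybbKO 837 (without CybbKO ligated replicate 1) to 2949 (without CybbKO ligated replicate 2) genes were called, and 1 to 3 members over both genotypes, where Odam was added without WT ligated replicate 3, Plec without CybbKO ligated replicate 2, and Plec and Lamb3 without WT naive replicate 1 or CybbKO naive replicate 2. Between genotypes 0 to 2 genes were called in ligated gingiva, and 0 to 1 for the interaction. The same omissions gave ligature differences in WT of -0.10 to 0.36 for Amtn, -0.10 to 0.16 for Itga6 and -0.0013 to 0.61 for Itgb6, and in CybbKO of -0.49 to 1.77 for Amtn and -0.048 to 0.32 for Itga6. They gave genotype differences in ligated gingiva of -0.26 to 0.70 for Odam, -0.0024 to 0.28 for Lama3, 0.018 to 0.16 for Lamb3, -0.22 to 0.15 for Itga6, -0.092 to 0.28 for Itgb4, -0.33 to 0.26 for Itgb6 -0.51 to -0.15 for Dst and -0.12 to 0.30 for Plec. A minimum of 10 counts in every library left no value for Amtn.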
